A study of Mus musculus with 10 samples.

Results

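Il1rn and 6 other genes of the interleukin 1 (IL-1) family were followed through reprogramming of mouse embryonic fibroblasts (MEFs) with and without the forkhead factor FoxO6. The 7 genes, of 48476 in the table of the series, were matched by symbol. They are the antagonist Il1rn, the receptor chains Il1r1, Il1rap, Il1rl1 and Il1rl2, and the ligands Il33 and Il18. They were selected on earlier results from these libraries, in which Il1rn was among the genes that differed most between the arms. The values below that compare the arms are therefore given as descriptions, without a test.

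IL-1 family ligands bind a specific receptor chain, which then recruits an accessory chain, and the paired intracellular TIR domains call in MyD88 and IRAK kinases, so that NF-kB and MAP kinases are activated. The IL-1 receptor antagonist, the product of Il1rn, occupies the receptor Il1r1 without recruiting the accessory chain and so blocks IL-1 alpha and IL-1 beta. Fibroblasts are well known as responders to IL-1, to which they answer with chemokines, prostaglandin synthesis and matrix-degrading enzymes.

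The MEFs came from E13.5 embryos, with the strain labelled CBA/CaJ X C57BL/6J. By the study's methods the cells carried a GFP reporter of Oct4. All were infected with retroviruses, made in PlatE cells, for Oct4, Klf4 and Sox2 (OKS). After the infections, by the same methods, cells were induced in the reprogramming medium iCD1. The control arm, OKS + DsRed, also received the red fluorescent protein DsRed (DR in the labels), and the other arm, OKS + FoxO6, received FoxO6 in its place. Cells for bulk RNA-seq were taken at days 0, 1, 3, 5 and 7. Each arm gave a single library on each day, so there are 10 libraries and no replicate of any of them, and where 5 values of an arm are listed below they follow the order of these days. Infected cultures are mixtures of cells, and the labels do not say whether the days of an arm came from 1 infected culture. In such bulk samples, fewer cells of a type that expresses a gene and less RNA of that gene per cell cannot be told apart.

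The libraries were shallow, with 1208379 to 2225750 expected counts each and a median of 1601151. Levels are given as TPM (transcript abundance corrected for transcript length and scaled to the same sum in every library), and the RSEM expected counts behind them are called reads. Differences between the arms are OKS + FoxO6 minus OKS + DsRed on the log2(TPM + 1) scale, on which 1 is a 2-fold change of a well expressed gene and the change of a low gene is understated. Foxo6 had 1 to 4 reads in the OKS + DsRed libraries and 1743 to 3375 in the OKS + FoxO6 libraries, including the library of day 0. Over the 14837 genes whose TPM averaged 1 or more, the median difference was 0.09 at day 0 and -0.14 at day 7, and lay between 0 and 0.003 on the days between. The 9 fibroblast markers summed to a TPM of 1284 to 5326 in OKS + DsRed and 1777 to 5608 in OKS + FoxO6. They did not all move together, with mean differences over the days from -0.612 for Col3a1 to 1.205 for Dcn.

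Windows of 250 bases upstream of the annotated RefSeq transcript starts (GRCm38.p6) are shown for the genes whose windows bear on the comparison with FoxO6, a forkhead factor. Capitals mark the letters GTAAACA or their reverse complement TGTTTAC, a forkhead consensus, and TGACTCA or its reverse complement TGAGTCA, an AP-1 consensus. Both strands were searched, and the 2 motifs shared no bases in the windows shown. All 7 genes lie on the plus strand, and the sequences run 5′ to 3′ on it. The upstream start of Il1rn (chr2:24336610-24336859) belongs to a transcript of an intracellular form. The downstream window (chr2:24345041-24345290) lies just before a cluster of starts that includes that of the secreted form. The second start of Il1rl1 (chr1:40439379-40439628) and the upstream start of Il33 (chr19:29924863-29925112) are shown because they hold the forkhead letters.
Il1rn upstream start: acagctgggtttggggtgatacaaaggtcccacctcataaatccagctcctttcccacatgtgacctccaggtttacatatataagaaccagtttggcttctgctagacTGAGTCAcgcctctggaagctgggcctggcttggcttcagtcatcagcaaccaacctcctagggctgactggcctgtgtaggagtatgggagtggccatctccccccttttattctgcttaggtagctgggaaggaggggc
Il1rn downstream start: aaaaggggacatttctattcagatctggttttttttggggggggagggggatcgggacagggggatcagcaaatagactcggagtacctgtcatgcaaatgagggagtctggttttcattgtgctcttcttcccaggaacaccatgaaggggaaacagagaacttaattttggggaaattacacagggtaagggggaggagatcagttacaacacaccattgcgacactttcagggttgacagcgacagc
Il1rl1 second start: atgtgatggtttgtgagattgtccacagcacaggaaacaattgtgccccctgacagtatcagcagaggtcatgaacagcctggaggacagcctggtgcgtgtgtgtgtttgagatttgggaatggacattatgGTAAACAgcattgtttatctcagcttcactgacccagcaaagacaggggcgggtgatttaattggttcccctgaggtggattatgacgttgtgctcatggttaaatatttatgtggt
Il33 upstream start: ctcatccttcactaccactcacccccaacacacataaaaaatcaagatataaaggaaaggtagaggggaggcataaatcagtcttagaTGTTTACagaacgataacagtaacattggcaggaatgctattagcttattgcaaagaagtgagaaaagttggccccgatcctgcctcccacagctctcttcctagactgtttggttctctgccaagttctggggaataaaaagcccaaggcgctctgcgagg

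The 7 genes have 12 such windows, and the forkhead letters occur in 2 of them, 117 bases before the second start of Il1rl1 and 162 bases before the upstream start of Il33. No window of Il1rn holds these forkhead letters. Its upstream window holds the AP-1 letters 141 bases before the start, and no other of the 12 windows does. Of 32851 windows of the same length over all genes, 3.17% hold the forkhead letters and 4.46% the AP-1 letters. These matches describe the letters only.

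Il1rn, the receptor antagonist, was the member that separated the arms. Il1rn (ENSMUSG00000026981) lies on chromosome 2 from 24336853 to 24351494, and no other annotated gene overlaps it. In OKS + DsRed its TPM was 8.61, 19.97, 11.66, 6.32 and 0.53, from 13, 22, 10, 6 and 1 reads. In OKS + FoxO6 its TPM was 138.03, 193.13, 272.7, 247.89 and 146.86 on the same days, from 277, 308, 470, 472 and 261 reads. The lowest OKS + FoxO6 library lay above the highest OKS + DsRed library, so the arms did not overlap. Il1rn was the single member of the 7 for which this held, and 1.96% of these 14837 genes lay higher in OKS + FoxO6 in the same way. The differences were 3.85, 3.21, 4.43, 5.09 and 6.59, with a mean of 4.64 ± 1.30 (SD over 5 days). Among 14837 genes the difference of Il1rn ranked 25, 60, 19, 15 and 5 from the highest on the successive days, and its mean ranked 4.

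**Figure D1:**
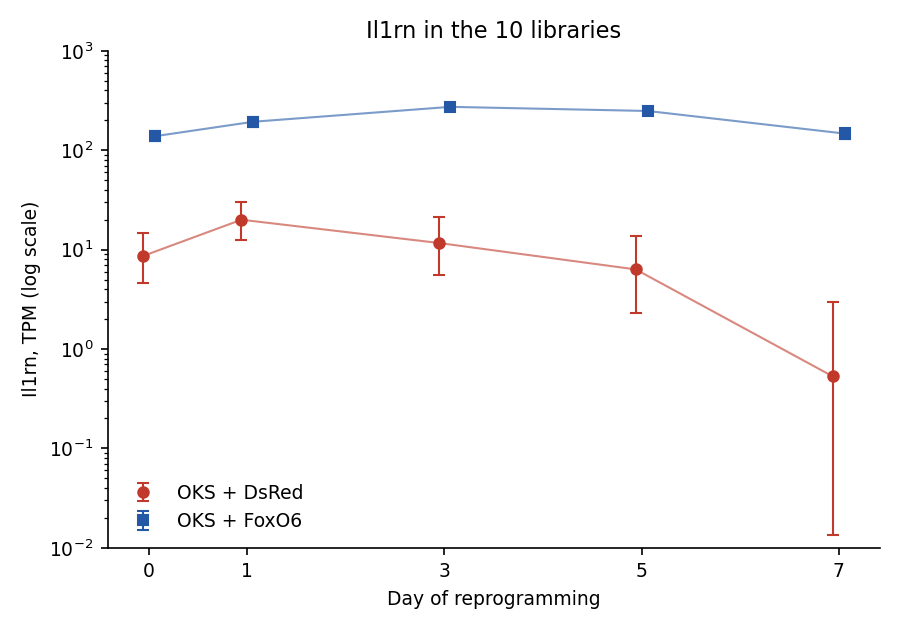
Il1rn TPM (log axis) against day of reprogramming in both arms, 1 library per point, with exact Poisson 95% intervals as bars (counting error only). The OKS + FoxO6 libraries lie between 138.03 and 272.7, and the OKS + DsRed libraries fall from 19.97 at day 1 to 0.53 at day 7.

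Reads per library total give the precision of these ratios, with exact binomial (Clopper-Pearson) 95% intervals that cover counting error and compare 2 libraries, not the conditions. The ratio of OKS + FoxO6 to OKS + DsRed was 11.6 (6.65 to 22) at day 0 and 12.9 (8.39 to 20.95) at day 1. It was 34.7 (18.7 to 72.8) at day 3 and 51.9 (23.65 to 142) at day 5. At day 7 the ratio was 312.5, but it rests on 1 read in OKS + DsRed and its interval runs from 55.6 to 12390. The separation was thus already present in the library labelled day 0, and the intervals of days 1 and 3 overlap that of day 0 while those of days 5 and 7 lie above it.

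Over the days, the arms took different courses. In OKS + FoxO6, reads per library total were 1.51 times the day 0 value at day 1 (1.28 to 1.78), 1.90 times at day 3 (1.64 to 2.21), 1.84 times at day 5 (1.58 to 2.14) and 1.34 times at day 7 (1.13 to 1.60). Il1rn was therefore highest at days 3 and 5 of this arm and nearer to its starting level at day 7. In OKS + DsRed the same ratio was 1.35 at day 1 (0.65 to 2.91), 0.63 at day 3 (0.25 to 1.57) and 0.41 at day 5 (0.13 to 1.16), all with intervals that include 1. At day 7 it was 0.050, with an interval of 0.0012 to 0.33 from that single read.

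In order of TPM the libraries ran from OKS + FoxO6 day 3 and day 5 through day 1, day 7 and day 0 of that arm to OKS + DsRed day 1, day 3, day 0, day 5 and day 7. By the counting intervals of their ratios, neighbours in this order could not be separated between days 3 and 5, nor between days 7 and 0, of OKS + FoxO6. For days 7 and 0 the scales differed, since the TPM ratio was 1.06 (0.895 to 1.26) while the ratio of reads per library total given above had an interval above 1. Among the OKS + DsRed libraries, the successive steps from day 1 through day 3 and day 0 to day 5 could not be separated either. The step from OKS + FoxO6 day 0 down to OKS + DsRed day 1 was 6.91-fold in TPM (4.47 to 11.2).

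Il1rn produces secreted and intracellular proteins from different first exons. In the annotation (GENCODE M21), the secreted-type transcript Il1rn-201 starts at 24345310, is 1986 nucleotides long and codes for 178 residues, and the intracellular-type transcript Il1rn-204 starts at 24336853, is 2474 nucleotides long and codes for 159 residues. RSEM reports a mean transcript length per library, weighted by the estimated share of each transcript. For Il1rn this mean was 1884, 2001, 1831, 1941 and 2046 nucleotides in OKS + FoxO6, near the length of Il1rn-201. In OKS + DsRed it was 2398, 1516, 1235, 1448 and 1986 nucleotides, from 1 to 22 reads, and varied more widely. A mean length cannot be resolved into single transcripts, and the 1986 at day 7 is 1 read assigned to Il1rn-201.

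The make-up of the family differed between the arms through Il1rn. Its share of the summed TPM of the 7 genes was 20.7%, 26.7%, 38.4%, 21.9% and 2.36% in OKS + DsRed. In OKS + FoxO6 its share was 72.2%, 83.7%, 89.1%, 88.7% and 90.3%. The other 6 genes together summed to a TPM of 18.7 to 54.8 in OKS + DsRed and 15.8 to 53.2 in OKS + FoxO6, ranges that overlap almost fully. Within days the sums differed. They were higher in OKS + FoxO6 at days 0, 3 and 5 (53.24, 33.19 and 31.5 against 32.95, 18.7 and 22.56). At days 1 and 7 they were lower (37.64 and 15.79 against 54.78 and 21.94). Averaged over the days, Il1rap was the most abundant of the 7 in OKS + DsRed with a TPM of 10.6, ahead of Il1rn with 9.42, while in OKS + FoxO6 Il1rn with 199.7 stood far ahead of Il1rap with 13.2.

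The genes whose log2(TPM + 1) followed Il1rn most closely over the 10 libraries were Rnase4, a secreted ribonuclease, Gabarap, an Atg8 protein of autophagosomes, and Ctsk, the lysosomal protease cathepsin K. Their Pearson r was 0.985, 0.976 and 0.972, the highest of 11422 genes compared. The 10 points share 2 arms, and any gene that separates the arms scores high on this measure. Rnase4 ran from a TPM of 58.4 to 154.8 in OKS + DsRed and from 282.8 to 502.7 in OKS + FoxO6, Gabarap from 388.5 to 505.7 and from 623.3 to 723.3, and Ctsk from 20.6 to 63.3 and from 83.95 to 142.9.

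Cells other than fibroblasts express Il1rn strongly, macrophages and keratinocytes among them. Of 10 macrophage markers, 7 (Ptprc, Csf1r, Adgre1, Cd14, Aif1, Fcer1g and Tyrobp) had at most 3 reads in any library, and the summed TPM of the list was 18.2 to 61.1 in OKS + DsRed and 23.9 to 31.2 in OKS + FoxO6. Cd68, which encodes a lysosomal protein, was the most abundant of the list, with a mean TPM of 25.99. The 6 keratinocyte markers, led by Krt6a, summed to 19.1 to 27.7 in OKS + DsRed and to 4.61 to 14.3 in OKS + FoxO6. Their members did not all follow the sum, and at day 5 Krt10 had a TPM of 8.41 with FoxO6 against 5.52 with DsRed. The 6 endothelial markers, led by Tek, summed to 23.4 to 57.5 in OKS + DsRed and 34.4 to 143.1 in OKS + FoxO6. Kdr, the VEGF receptor among them, had a TPM of 2.11, 10.82, 8.18, 1.74 and 1.23 in OKS + DsRed. In OKS + FoxO6 Kdr had 1.70, 10.58, 44.62, 38.38 and 20.76 and was thus higher at days 3, 5 and 7. Tek had a TPM of 16.77, 21.89, 45.7, 46.53 and 47.27 in OKS + DsRed. In OKS + FoxO6 Tek had 27.61, 54.17, 92.86, 103.66 and 69.75 and was thus higher on each day. Cdh5, Tie1, Pecam1 and Vwf had a mean TPM of at most 1.65. Their mean differences between the arms were 0.31, 0.80, -0.71 and -0.34 in that order, so the markers of this list went both ways. The part of endothelial cells, of keratinocytes and of macrophages in the Il1rn values was not tested.

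The receptor chains were measured from far fewer reads. The signalling receptor Il1r1 (ENSMUSG00000026072; chromosome 1 from 40225080 to 40317257), which Il1rn blocks, had a TPM of 2.92, 2.22, 1.15, 1.01 and 2.37 in OKS + DsRed, from 9, 8, 4, 4 and 11 reads. In OKS + FoxO6 it had 5.32, 2.04, 0.93, 2.05 and 0.70, from 28, 8, 5, 10 and 3 reads. The arms overlapped, the mean difference was 0.01 ± 0.68 (SD over 5 days), and no day passed 2-fold. The count ratio between the arms had an interval that includes 1 on every day. Within OKS + FoxO6, reads per library total at days 1, 3, 5 and 7 were 0.39, 0.20, 0.39 and 0.15 times the day 0 value, with intervals below 1 on all 4 days. In OKS + DsRed the corresponding ratios were 0.71, 0.37, 0.40 and 0.79, with intervals that include 1. The TPM of the antagonist lay above that of its receptor in every library except OKS + DsRed day 7, where it was 0.53 against 2.37, from 1 and 11 reads and with overlapping counting intervals. In OKS + DsRed the intervals also overlapped at day 0 (4.58 to 14.7 against 1.34 to 5.54) and at day 5 (2.32 to 13.8 against 0.28 to 2.59).

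Il1rap (ENSMUSG00000022514; chromosome 16 from 26581704 to 26730117) encodes the accessory chain shared by the receptors of IL-1, IL-33 and IL-36. Its TPM was 7.99, 16.12, 9.83, 10.48 and 8.76 in OKS + DsRed, from 23, 47, 32, 32 and 36.3 reads. In OKS + FoxO6 it was 21.16, 9.83, 12.18, 14.61 and 8.24, from 83, 27, 51, 66 and 31.5 reads. The order of the arms changed between the first days. The count ratio was 1.96 (1.22 to 3.26) at day 0 and 0.53 (0.32 to 0.87) at day 1, and its interval included 1 at days 3, 5 and 7. OKS + DsRed was highest at day 1 and OKS + FoxO6 at day 0. The mean difference was 0.26 ± 0.72 (SD over 5 days), and it was -0.003 without day 0. At day 7 the difference in TPM was -0.08 while the count ratio was 1.04, the 2 scales being normalized differently. The antisense gene Gm20319 shares 552 of the 11360 exonic bases of Il1rap, and without strand information reads from these bases cannot be told apart.

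Il1rl1 (ENSMUSG00000026069; chromosome 1 from 40429570 to 40465415) encodes ST2, the receptor of IL-33, first known as a growth-induced gene of fibroblasts. In OKS + DsRed its TPM was 8.52, 4.67 and 1.05 at days 0, 1 and 3, from 12, 6 and 2 reads, with 0 reads at days 5 and 7. In OKS + FoxO6 it was 9.97, 4.07, 1.74 and 2.51 at days 0, 1, 3 and 5, from 34, 11, 6 and 5 reads, with 0 reads at day 7. Both arms were thus highest at day 0 and without a read at day 7, and they overlapped. A count of 0 leaves room for up to 3 reads. At day 5, where OKS + DsRed had none, the difference on the log2(TPM + 1) scale was 1.81, and the interval of the count ratio began at 0.60 and so included 1. In OKS + FoxO6, reads per library total were 0.44, 0.20 and 0.16 times the day 0 value at days 1, 3 and 5, all with intervals below 1, and at day 7 the interval reached up to 0.16. In OKS + DsRed the ratio was 0.14 (0.015 to 0.62) at day 3. Mast cells carry much ST2, and 5 of their markers were looked at. Mcpt4, Tpsb2 and Fcer1a had 0 reads in every library and Cpa3 at most 2. The 5 markers summed to a TPM of 0.42 to 27.6 in OKS + DsRed and 0.35 to 13.1 in OKS + FoxO6. Kit was the most abundant, with a mean TPM of 10.02 and up to 130 reads in a library. The part of mast cells in the Il1rl1 values was not tested.

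Il1rl1 makes a long membrane receptor and a short soluble decoy that binds IL-33 in the medium. The long transcripts Il1rl1-202 and Il1rl1-201 are 5302 and 5053 nucleotides and code for 567 residues, and the short transcripts Il1rl1-203 and Il1rl1-205 are 2661 and 1216 nucleotides and code for 337 residues. The mean length of Il1rl1 was 2243, 1759 and 2661 nucleotides at days 0, 1 and 3 in OKS + DsRed and 3156, 3345, 3609 and 2026 at days 0, 1, 3 and 5 in OKS + FoxO6. Every library with reads had a mean below that of either long transcript, so shorter transcripts took part of the estimate in each. At days 0, 1 and 3 the mean was longer in OKS + FoxO6, but these lengths rest on 2 to 34 reads and have no error.

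Il1rl2 (ENSMUSG00000070942; chromosome 1 from 40324610 to 40367562), the receptor of IL-36, had a TPM of 6.64, 7.90, 2.87, 1.34 and 3.58 in OKS + DsRed, from 13, 23, 5, 3 and 8 reads. In OKS + FoxO6 it had 12.75, 7, 7.32, 6.23 and 1.45, from 48, 22, 22, 18 and 5 reads. After Il1rn, it was the member with most days on which the count ratio stood apart from 1. The ratio was 2.005 (1.07 to 4.03) at day 0, 3.25 (1.20 to 10.98) at day 3 and 3.96 (1.16 to 20.96) at day 5, and its interval included 1 at days 1 and 7. The libraries of the arms overlapped all the same, and at day 7 the difference was -0.90, against 1.10 at day 3 and 1.63 at day 5. The mean difference was 0.51 ± 1.02 (SD over 5 days). The spans of Gm17970 and Gm38070, on the same strand, overlap those of Il1rl2 and Il1r1 respectively, with 0 exonic bases shared.

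**Figure D2:**
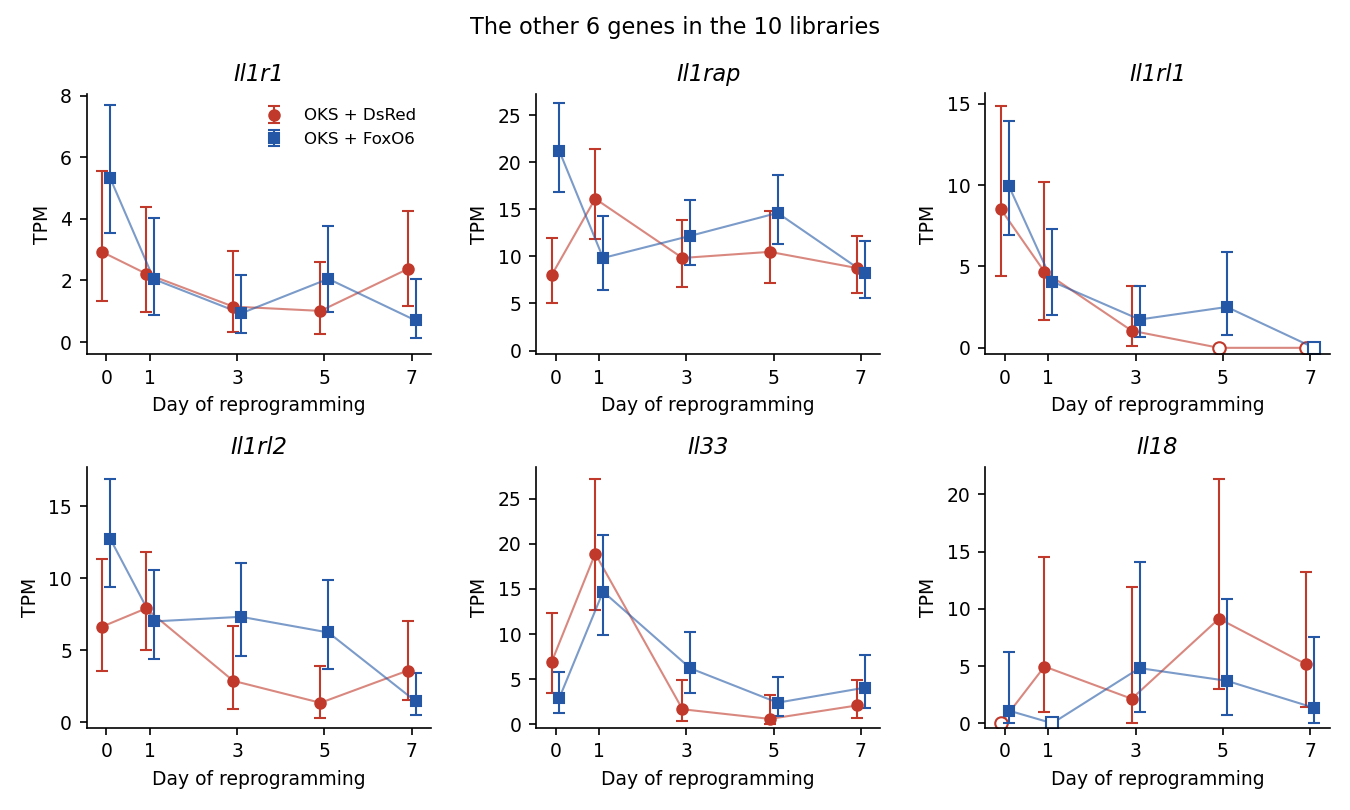
TPM against day of reprogramming for the 6 genes other than Il1rn, 1 library per point, with exact Poisson 95% intervals as bars (counting error only). Open symbols are libraries with 0 reads. The arms overlap in all 6 panels, Il33 is highest at day 1 in both arms and Il1rl1 ends at 0 in both.

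Of the ligands, Il33 (ENSMUSG00000024810; chromosome 19 from 29925114 to 29960718) encodes a nuclear cytokine that is released from damaged cells and signals through ST2. Its TPM was 6.88, 18.91, 1.66, 0.59 and 2.08 in OKS + DsRed, from 11, 29, 3, 1 and 5 reads. In OKS + FoxO6 it was 2.93, 14.7, 6.20, 2.39 and 4.05, from 8, 30, 15, 6 and 9 reads. Il33 was thus highest at day 1 in both arms. At day 1, reads per library total were 2.1 times (1.02 to 4.66) the day 0 value in OKS + DsRed and 5.08 times (2.28 to 12.8) in OKS + FoxO6. By day 5 the ratio to day 0 had come down to 0.081 (0.0019 to 0.56), from 1 read, in OKS + DsRed, and to 0.81 (0.23 to 2.66) in OKS + FoxO6. The difference between the arms was -1.004 and -0.34 at days 0 and 1 and 1.44, 1.09 and 0.71 at days 3, 5 and 7. Day 3 was the single day with a count ratio interval above 1, with a ratio of 3.69 (1.04 to 19.9).

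The upstream and downstream starts of Il33, transcripts Il33-202 and Il33-201, give lengths of 2537 and 2544 nucleotides and the same 266 residues. The mean length was 2537 in OKS + DsRed at days 0, 3, 5 and 7 and in OKS + FoxO6 at days 0 and 5, so that the estimate in these libraries put all reads on Il33-202. It was 2544 in OKS + FoxO6 at days 1, 3 and 7, where all reads were put on Il33-201, and 2087 in OKS + DsRed at day 1. The upstream start is the one with the forkhead letters shown above. The transcripts share all but their first exon, and with at most 30 reads per library the assignment is uncertain.

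Il18 (ENSMUSG00000039217; chromosome 9 from 50554827 to 50581840), whose product must be cleaved by caspase 1 to become active, was barely detected. It had 0, 3, 1, 5 and 4 reads in OKS + DsRed, for a TPM of 0, 4.96, 2.14, 9.14 and 5.15. It had 1, 0, 3, 3 and 1 reads in OKS + FoxO6, for a TPM of 1.11, 0, 4.82, 3.71 and 1.35. No order of the libraries can be read from such counts, and every interval of the count ratio between the arms included 1. The spans of the antisense genes Bco2 and Tex12 overlap that of Il18, but in the annotation they share 0 exonic bases with it.

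Over the 7 genes and 5 days, 12 of 35 differences passed 2-fold higher in OKS + FoxO6 and 4 passed 2-fold lower. At day 0 these were 3 genes higher (Il1rn, Il1rap and Il18) and 1 lower (Il33), beside 10.4% higher and 6.32% lower of all 14837 genes. At day 1 there was 1 higher (Il1rn) and 1 lower (Il18), beside 7.95% and 9.33%. At day 3 there were 3 higher (Il1rn, Il1rl2 and Il33) and 0 lower, beside 8.16% and 11.7%. At day 5 there were 4 higher (Il1rn, Il1rl1, Il1rl2 and Il33) and 1 lower (Il18), beside 10.2% and 11.4%. At day 7 there was 1 higher (Il1rn) and 1 lower (Il18), beside 8.25% and 16.3%. The genes were selected with these values known, and nothing is read from the comparison of the shares. All 4 differences of Il18 past 2-fold, and those of Il1rl1 at day 5 and of Il33 at day 5, rest on at most 6 reads in each library.

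**Figure D3:**
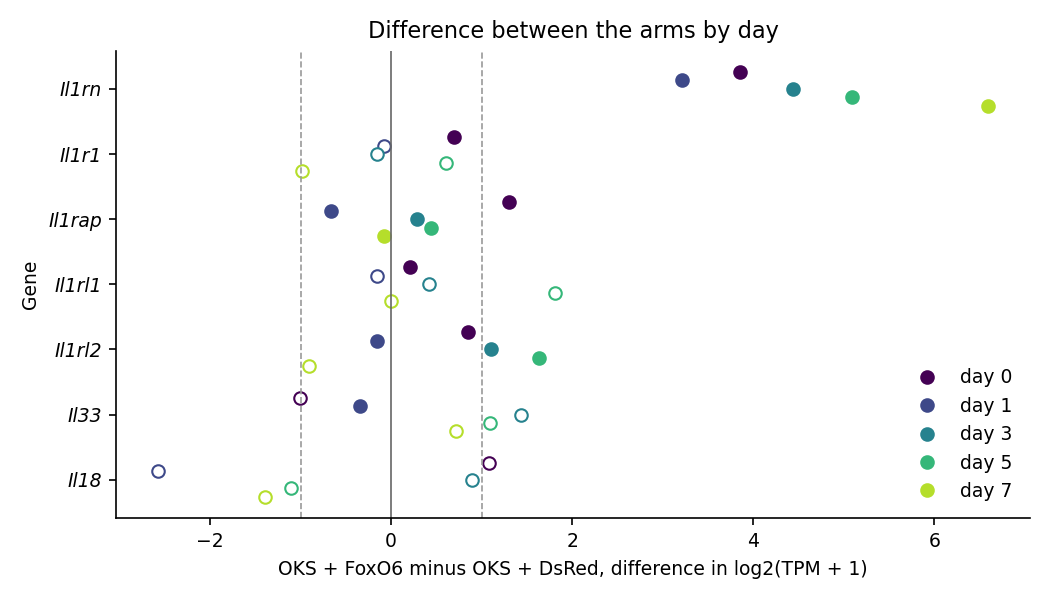
Difference between the arms in log2(TPM + 1) for the 7 genes, 1 point per day coloured by day, with dashed lines at a 2-fold change. Open points have fewer than 20 reads in both libraries together. Il1rn lies between 3.21 and 6.59 on all days, and the points of the other 6 genes lie on both sides of 0 or, for Il1rl1 at day 7, on it.

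Of the remaining members, Il1rap, Il1rl2 and Il33 were abundant enough to look for genes with a like pattern over the 10 libraries. Zfp618 was closest to Il1rap with a Pearson r of 0.879, Rbm45 to Il1rl2 with 0.948 and Rtca to Il33 with 0.943. The next were Gpat4 (0.857) and E430018J23Rik (0.854) for Il1rap, Rhobtb3 (0.942) and Zfp275 (0.938) for Il1rl2, and Slc35d1 (0.892) and Tomm20 (0.891) for Il33. These are the highest of 11422 values each, over points measured from few reads, and are given as a description.

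The other genes of the pathway were examined as 5 lists of 68 genes, without the 7. For these, edgeR's quasi-likelihood test on rounded expected counts asked for a difference between the arms common to the days. Day was a factor of the fit, and p was adjusted over 12139 genes by Benjamini-Hochberg. The days of an arm are its only repeats, so this describes the 2 time courses and not independent infections. Of all genes tested, 6.69% were higher and 6.92% lower in OKS + FoxO6 at an adjusted p under 0.05. Of the 43 pathway genes tested, 2 were higher and 4 lower. By day, 17 of 245 gene and day pairs among the 49 pathway genes whose TPM averaged 1 or more were past 2-fold higher (6.94%) and 34 past 2-fold lower (13.9%), beside 8.98% and 11.0% of the pairs of all 14837 genes. The lists' median difference was 0.23 at day 0 and -0.16 at day 7, beside 0.09 and -0.14 over all genes.

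The agonists that Il1rn blocks were not seen. Il1a and Il1b, which encode IL-1 alpha and IL-1 beta, had 0 reads in all 10 libraries, as did Il1f5, Il1f6, Il1f8 and Il1f10 of the IL-36 and IL-38 branches. Each library could still hold up to 3 reads of such a gene. Il1f9 had at most 2 reads in a library. Il18bp, a secreted protein that binds and neutralizes IL-18, was the single further ligand-side gene with a mean TPM above 1. Its TPM was 0, 13.74, 27.22, 82.21 and 43.05 in OKS + DsRed and 3.61, 8.35, 4.73, 17.07 and 19.55 in OKS + FoxO6. From day 1 on it was lower in OKS + FoxO6, and its shift was -1.11 ± 0.44 (SE), with an edgeR adjusted p of 0.124. It passed without day 0 (0.0223) and without the filter on counts (0.00341).

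Among the further receptors, Sigirr, an inhibitory receptor of the family, was lower in OKS + FoxO6. Its TPM was 12.03, 22.11, 54.06, 57.35 and 55.37 in OKS + DsRed and 5.22, 16.35, 12.7, 23.81 and 34.04 in OKS + FoxO6, lower on 5 of 5 days, with an edgeR log2 fold change of -0.98 ± 0.27 (SE) and an adjusted p of 0.0332. The decoy receptor Il1r2 had 1 read in all, Il18rap a mean TPM of 0.55, and Il18r1 and Il1rapl1 had 0 reads.

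Of 8 genes for inflammasomes and for the cleavage of IL-1 and IL-18, 5 were tested, of which 0 were called higher and 1 lower, beside the 6.69% and 6.92% of all genes. Aim2, the cytosolic DNA sensor that assembles an inflammasome, was lower in OKS + FoxO6. Its TPM was 0.77, 8.51, 26.62, 69.2 and 117.9 in OKS + DsRed and 1.35, 0.60, 5.60, 30.2 and 42.18 in OKS + FoxO6. It was higher at day 7 than at day 0 in both arms and lower with FoxO6 on 4 of 5 days, with an edgeR log2 fold change of -1.46 ± 0.29 (SE) and an adjusted p of 0.00755. The pore-forming protein Gsdmd (-0.32 ± 0.27, adjusted p of 0.493) and the protease Casp8 (0.10 ± 0.22, adjusted p of 0.832) did not pass. Casp1, the enzyme that matures IL-1 beta and IL-18, had at most 6 reads in a library.

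All 20 signal transducers below the IL-1 receptor were expressed, and edgeR called 0 of them at an adjusted p under 0.05, beside the 6.69% higher and 6.92% lower of all genes. At an unadjusted edgeR p under 0.05 there were 3 higher and 0 lower. The share of all genes at that threshold was not computed, so nothing is read from this count. DESeq2 also called 0, while edgeR called 2 higher (Tollip and Rela) without the filter on counts and 1 higher (Tollip) without day 0 or without day 7. Tollip, an adaptor that restrains IRAK1, had a shift of 0.44 ± 0.14 (SE) and an adjusted p of 0.0586 with all days. The most abundant were the kinase Irak1 with a mean TPM of 152.2 and a shift of 0.09 ± 0.12 (SE), the TAK1 adaptor Tab2 with 122.4 and 0.14 ± 0.12, and the NF-kB subunit Rela with 112.8 and 0.43 ± 0.14, whose edgeR adjusted p was 0.0606.

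Of 26 genes that fibroblasts are known to induce in response to IL-1, 16 were tested, of which 2 were higher and 2 lower in OKS + FoxO6, beside the 6.69% and 6.92% of all genes. Ccl2, the monocyte chemoattractant, was lower in OKS + FoxO6. Its TPM was 71.67, 59.7, 122.01, 179.4 and 167.5 in OKS + DsRed and 36.38, 17.82, 30.38, 41.57 and 72.74 in OKS + FoxO6. It was lower on 5 of 5 days, with an edgeR log2 fold change of -1.62 ± 0.21 (SE) and an adjusted p of 0.000765. Tnfaip3, which encodes A20, the ubiquitin-editing inhibitor of NF-kB, was also lower on 5 of 5 days (-1.32 ± 0.27, adjusted p of 0.00816). Its TPM was 3.85 to 12.45 in OKS + DsRed and 2.28 to 3.94 in OKS + FoxO6.

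The differences of the genes that were higher in OKS + FoxO6 were smaller. Sod2, the mitochondrial superoxide dismutase, was higher on 5 of 5 days (0.55 ± 0.12, edgeR adjusted p of 0.013), with a TPM of 23.04 to 48.81 in OKS + DsRed and 31.1 to 73.63 in OKS + FoxO6. Ptgs2, the inducible cyclooxygenase of prostaglandin synthesis, was higher on 4 of 5 days (0.68 ± 0.20, adjusted p of 0.046) and its TPM went from 70.87 to 10.53 in OKS + DsRed and from 138.8 to 6.36 in OKS + FoxO6 between days 0 and 7. The chemokine Ccl7 (-0.69 ± 0.29, adjusted p of 0.142) and the adhesion molecule Vcam1 (-0.56 ± 0.18, adjusted p of 0.067), the most abundant of the list, did not pass. Both passed as lower without the filter on counts (0.0133 and 0.00933), and Ccl7 also without day 7 (0.00618) and Vcam1 without day 5 (0.0194). Lcn2 and Csf3 had 0 reads.

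Of these 6 calls, that of Ccl2 held when any single day was left out, with edgeR adjusted p values of 0.00048 to 0.00761. The other calls were lost on leaving out some days, with folds in the same direction. Aim2 and Tnfaip3 did not pass without day 5 (adjusted p of 0.0502 and 0.0727), with log2 fold changes of -1.46 and -1.17. Sod2 did not pass without day 3 or day 5 (0.0671 and 0.0594), with 0.53 and 0.55. Sigirr did not pass without day 1, 3 or 5 (0.0532, 0.142 and 0.153), with -1.08, -0.68 and -0.89, nor under DESeq2 (0.08). Ptgs2 did not pass without day 0, 1, 3 or 5 (0.119, 0.157, 0.121 and 0.165), with 0.63, 0.59, 0.70 and 0.60, nor under DESeq2 (0.0581).

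**Figure D4:**
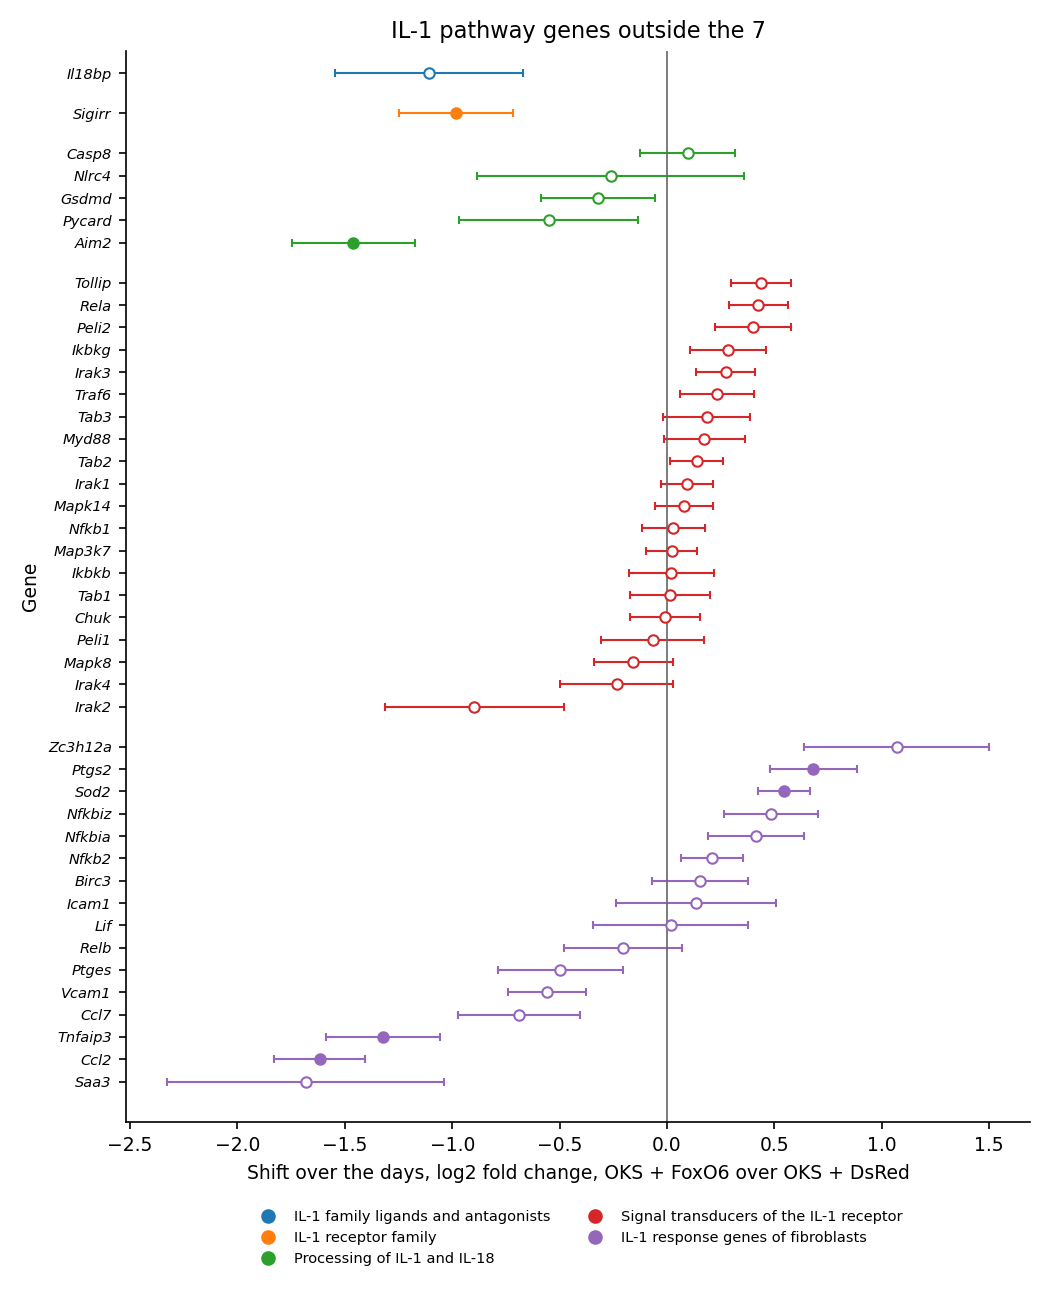
Shift between the arms over the days for the 43 tested pathway genes, as edgeR log2 fold change of OKS + FoxO6 over OKS + DsRed with its SE as bars, coloured by list. Filled points passed an adjusted p of 0.05. The 20 signal transducers lie between -0.90 and 0.44 and none is filled, and the filled points are Sigirr, Aim2, Ptgs2, Sod2, Tnfaip3 and Ccl2.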

How the data were processed

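All 10 bulk RNA-seq libraries of the series were used, grouped by arm and day from their labels. The authors ran RSEM with bowtie2 against the GENCODE M13 transcripts (mm10). They deposited its expected counts, which are not normalized, and its TPM. The labels name a VAHTS mRNA-seq kit and the study's methods a TruSeq kit. The authors' mean transcript lengths per library were read from the same files. Totals of 1208379 to 2225750 counts limit the precision of low genes.

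Values were computed in Python 3.11.15 (scipy 1.17.1, pandas 2.3.3, numpy 2.4.6) and drawn with matplotlib 3.10.9. They are differences on the log2 scale after a pseudocount of 1 was added to the TPM, the exact Poisson intervals of counts and the exact binomial intervals of count ratios, at 95%. A count of 0 was taken to allow up to 3 reads. edgeR 4.0.16 (in R 4.3.3) was fitted to the rounded expected counts with TMM, filterByExpr and day as a factor, and DESeq2 1.42.0 was an alternative. On simulated data, the edgeR step found 197 of 200 genes changed 4-fold among 12139, with 13 false calls. The simulation used a common dispersion (0.0362) for all genes and the same change on every day. It therefore does not give the recovery or the error for smaller changes or for changes that differ by day. Coordinates and transcripts came from GENCODE M21 (GRCm38), and windows from RefSeq, in which all 7 genes matched by symbol. Protein sequences were not used here.

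The members, the gene lists and the tests were chosen with earlier results of these data known. The genes named are the 7 members, each pathway gene past the edgeR threshold, the 3 of highest mean TPM in each list and the 3 genes most like each member with a mean TPM of at least 5. The other genes named with values were chosen after their values were seen. Alternatives were a pseudocount of 0.1, CPM with a prior count of 2, filters, other size factors, a fit with no term for day, and leaving out each day.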

Additional observations from a re-analysis of the deposited data

Results flagged for a closer look

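The difference between the arms went past 2-fold in opposite directions on different days for 2 genes, and the change of sign was not tested. Day 0 had an Il33 value of -1.004 (log2(TPM + 1), FoxO6 arm minus DsRed arm), whereas day 3 had 1.437 and day 5 had 1.092, from 1 to 15 reads in a library. Il18 had 1.077 on day 0, and -2.575 on day 1, -1.106 on day 5 and -1.388 on day 7, from at most 5 reads in a library. With 1 library per arm and day no group was large enough to look for outlying libraries.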

How the results depend on the processing

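The mean difference of Il1rn was 4.64 and lay between 4.15 and 4.99 with a pseudocount of 0.1, with log2 CPM or with any day left out, lowest without day 7. The differences of the other 6 genes moved by less than their SD over the days in all 42 alternatives, but that SD is wider than the mean itself for each of them, so their direction is not fixed. Pairs past 2-fold numbered 16 among the members (13 to 19) and 51 among the pathway genes (39 to 64). Over all genes, edgeR called 812 higher and 840 lower. Without a day term it called 124 and 44, and 0 and 0 of the pathway genes, of which 3 higher and 2 lower had an unadjusted p under 0.05. DESeq2 called 560 higher and 550 lower, and of the pathway genes 1 higher and 3 lower. Without the filter on counts edgeR called 1148 higher and 1101 lower, and 4 and 8 of the 58 pathway genes then tested. Leaving out a day gave 385 to 849 genes higher and 313 to 849 lower, fewest without day 5, and among the pathway genes 0 to 3 higher and 2 to 5 lower. Without day 3 or day 5 there were 0 higher, with 6 and 7 at an unadjusted p under 0.05. No share over all genes was computed for the unadjusted counts or for the fit without the filter. Nothing is therefore read from the number of pathway genes there. The cause of the changes in the number of calls was not tested. The fit with day as a factor pairs the arms by day. At this depth, 24 of the 30 count ratios of the members other than Il1rn had an interval that includes 1.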
